A study of Mus musculus with 24 samples.

Results

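The mitochondrial carrier family was measured in liver, heart and brain of mice given an extract of Ephedra herba, a herbal drug made from Ephedra stems. Members were taken as every gene whose annotated symbol began with Slc25a, with the probe of highest mean signal standing for a gene that had several. This gave 37 genes, out of 16110 named genes on the array, and they were read by 54 probes. Of these, 32 were tested, because their probe lay above the median of all probes on at least 4 of the 24 arrays. The other 5 members, Slc25a21, Slc25a31, Slc25a40, Slc25a41 and Slc25a53, lay above it on at most 1 array and are described by level only.

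The treated animals were 5-week-old female C57BL/6 mice that received an aqueous extract of Ephedra herba by mouth at 50 mg/kg, with tissue taken after 1, 6, 12 and 24 hours and after 3, 5 and 10 days. Untreated mice of the same strain, age and sex served as the control. Each tissue and time was represented by 1 array, so no tissue and time had a replicate. The sources used here do not say whether dosing was repeated, how many animals an array stands for or whether the tissues of a time share animals.

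Mitochondrial carriers are small proteins of the inner mitochondrial membrane that exchange metabolites between matrix and cytosol. They bring in phosphate and ADP and export ATP, they move the acids, amino acids and acylcarnitines that feed the tricarboxylic acid cycle, the urea cycle and fatty acid oxidation, and they supply cofactors made outside the matrix. A few members lie elsewhere, such as Slc25a17 in the peroxisome membrane and Slc25a46 in the outer mitochondrial membrane. Heart depends on oxidation of fatty acids, liver runs the urea cycle and exports citrate for lipid synthesis, and brain relies on aspartate and glutamate shuttles, so the tissues are known to draw on different carriers.

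RefSeq promoter windows of mouse build GRCm38.p6, running from 250 bases before to 50 bases after an annotated start, were found for 30 of the 37 members. A set of 4 is shown, 1 gene for each main tissue pattern: Slc25a15 leads the liver carriers, Slc25a34 the heart carriers, Slc25a14 the brain carriers, and Slc25a20 is shared by heart and liver. Capitals mark matches, on either strand, to the GC box GGGCGG, the CCAAT box CCAAT, the E-box CACGTG or the nuclear receptor half-site AGGTCA.
Slc25a15, chr8:22398572-22398871, minus strand: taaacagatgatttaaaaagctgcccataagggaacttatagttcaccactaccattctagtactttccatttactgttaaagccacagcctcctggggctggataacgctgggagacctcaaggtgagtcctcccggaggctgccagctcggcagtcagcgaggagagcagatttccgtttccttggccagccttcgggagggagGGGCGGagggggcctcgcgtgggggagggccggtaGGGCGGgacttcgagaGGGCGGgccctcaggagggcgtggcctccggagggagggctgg
Slc25a34, chr4:141623785-141624084, minus strand: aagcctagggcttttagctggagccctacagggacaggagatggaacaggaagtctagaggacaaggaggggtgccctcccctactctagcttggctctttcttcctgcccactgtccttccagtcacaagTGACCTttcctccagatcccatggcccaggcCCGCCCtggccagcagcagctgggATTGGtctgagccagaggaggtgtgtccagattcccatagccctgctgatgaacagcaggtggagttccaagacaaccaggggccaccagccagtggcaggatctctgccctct
Slc25a14, chrX:48623198-48623497, plus strand: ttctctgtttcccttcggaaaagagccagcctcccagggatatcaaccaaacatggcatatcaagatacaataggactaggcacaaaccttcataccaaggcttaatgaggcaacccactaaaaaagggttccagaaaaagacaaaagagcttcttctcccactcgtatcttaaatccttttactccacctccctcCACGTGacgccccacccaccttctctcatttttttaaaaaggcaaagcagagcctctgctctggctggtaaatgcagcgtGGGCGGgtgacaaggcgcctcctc
Slc25a20, chr9:108661886-108662185, plus strand: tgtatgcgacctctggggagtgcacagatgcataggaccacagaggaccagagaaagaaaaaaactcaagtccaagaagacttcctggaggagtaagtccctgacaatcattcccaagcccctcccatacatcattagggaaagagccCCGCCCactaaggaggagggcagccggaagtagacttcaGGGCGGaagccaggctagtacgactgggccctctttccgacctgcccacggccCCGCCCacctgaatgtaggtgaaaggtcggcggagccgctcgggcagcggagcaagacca
These are the first of 2 listed windows for Slc25a15, the first of 3 overlapping ones for Slc25a14, and the 1 window of each other gene. The first Slc25a15 window held 3 GC boxes, its second held 5 and 1 E-box, and the Slc25a20 window held 3 GC boxes, of which 2 lay on the opposite strand. The Slc25a34 window held 1 GC box, 1 CCAAT box and 1 nuclear receptor half-site, all on the opposite strand. The first Slc25a14 window held 1 E-box 54 bases before the start and 1 GC box 26 bases after it.

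Over all members, the GC box was the commonest match. It was found in 34 of 39 member windows (87.2%), against 57.8% of the 11373 windows of tested genes and 35.7% of all 32851 windows. The E-box was in 8 member windows (20.5%), against 9.14% of windows of tested genes and 7.15% of all windows. The TATA box TATAAA was in 1 member window (2.56%), that of Slc25a21, against 8.66% of windows of tested genes and 13.6% of all windows. The CCAAT box was in 18 member windows (46.2%), against 37.3% and 37.4%. The half-site AGGTCA was in 3 member windows (7.69%), those of Slc25a34, Slc25a39 and Slc25a45, against 13.2% of windows of tested genes and 16.3% of all windows. The longer site TNAAGGTCA, which contains it, and the NRF1 site were in 0 member windows, against 0.906% and 1.68% of windows of tested genes and 1.28% and 0.971% of all windows. Unlike the windows of tested genes, the member windows include some of untested members, among them Slc25a21, Slc25a31, Slc25a40 and Slc25a53. Each window of a gene was counted, also where windows overlap, as for Slc25a14. These shares are descriptions of letters in the windows and carry no test.

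Values are the deposited expression levels, taken as log2, in which 0 is about the median of all probes on an array. The arrays had been brought to 1 spread within a tissue but not between tissues. The median absolute deviation was 0.356 to 0.367 in liver, 0.596 to 0.600 in heart and 0.803 to 0.809 in brain, so differences between tissues carry the authors' scaling. The floor differed with it: over the 3662 genes above the array median on no array, the median difference was 0.22 for heart over brain, 0.46 for liver over brain and 0.24 for liver over heart, so small differences between low values are not read as differences in expression. Neuron markers summed to 3.34 to 3.59 in liver, 3.66 to 4.02 in heart and 8.73 to 9.38 in brain on the log2 scale, and cardiomyocyte markers to 2.71 to 4.40, 10.43 to 11.60 and 2.57 to 4.31 in the same order of tissues. Hepatocyte markers summed to 10.28 to 13.44 in liver, 3.20 to 6.88 in heart and 7.27 to 8.29 in brain, where Ttr alone carried the sum (mean 7.60) and the other markers averaged -0.91 to 0.45. Single arrays held markers of another tissue: skeletal muscle markers were 5.65 on the 1 hour liver array against a liver median of 1.70, and hepatocyte markers were 6.88 on the 1 hour and 6.10 on the untreated heart array against a heart median of 4.10. On the 1 hour liver array the heart-enriched member Slc25a34 was 0.88, within the 0.52 to 1.00 of all liver arrays. Its liver maximum came at 24 hours, where cardiomyocyte markers summed to 3.77 against a liver median of 2.76. These markers were 4.31 on the untreated and 4.14 on the 10 day brain array, against a brain median of 2.66. Of members highest in heart, Slc25a11 and Slc25a35 peaked in brain on the untreated array (4.60 and 0.23) and Slc25a46 at 10 days (-0.19). Slc25a3, Slc25a12, Slc25a26 and Slc25a34 peaked on other brain arrays. Of members highest in liver, Slc25a1, Slc25a10, Slc25a39 and Slc25a45 were at their heart maximum on the untreated heart array (2.61, 1.65, 4.51 and 2.17). Slc25a15, Slc25a16, Slc25a32 and Slc25a48 were at their heart minimum there (1.84, 2.53, 0.17 and -0.50). On the 1 hour heart array, where the hepatocyte sum was highest, Slc25a15, Slc25a25 and Slc25a48 were at their heart maximum (2.26, 1.49 and -0.23). Slc25a30 was at its heart minimum on that array (0.49). Whether other tissue in a sample reached the carrier levels was not tested.

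**Figure D1:**
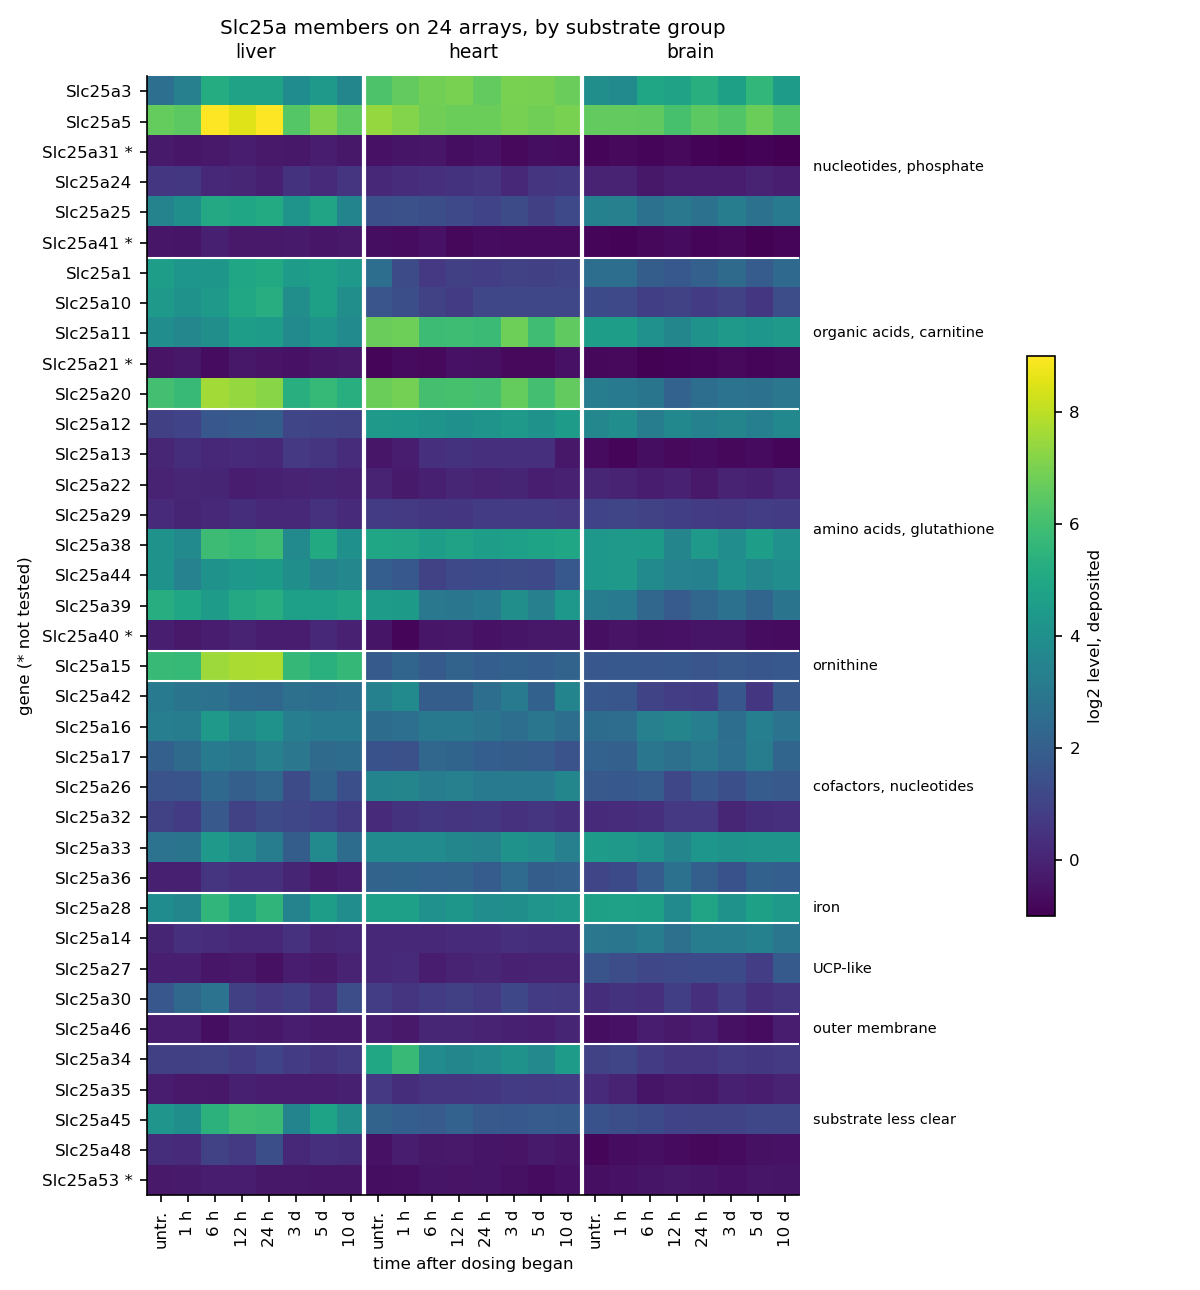
Deposited log2 level of the 37 Slc25a members (rows, grouped by what they carry) on the 24 arrays (columns, 8 times in liver, heart and brain); an asterisk marks the 5 members not tested. Liver stands out in the ornithine carrier Slc25a15, heart in Slc25a34, Slc25a3 and Slc25a11, and brain in Slc25a14, and several liver rows are brightest at 6, 12 and 24 hours.

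The first question was how the family differed between the tissues. Most carriers differed, as most tested genes did, with changes of up to 4.67 on the log2 scale (Slc25a15, liver over brain). The share of tested members called was 65.6% in heart against brain, 68.8% in liver against brain and 68.8% in liver against heart. These shares lay near those of all tested genes, at 71.4%, 76.2% and 65.3%. In bulk tissue, fewer cells of a type and less RNA per cell cannot be told apart. In heart against brain, 14 of the 32 tested members were higher and 7 lower at an adjusted p under 0.05 (limma, Benjamini-Hochberg over all 10934 tested genes), where 71.4% of all tested genes were called, 34.3% upwards and 37% downwards. For liver against brain the counts were 15 and 7, where 76.2% of all tested genes were called, 30.6% upwards and 45.6% downwards. For liver against heart they were 12 and 10, where 65.3% of all tested genes were called, 24.7% upwards and 40.6% downwards. The members' median change was 0.32 in heart over brain, 0.32 in liver over brain and 0.04 in liver over heart, and the median over all tested genes was 0.03, -0.16 and -0.12 in the same 3 comparisons. Quantile normalization over all 24 arrays moved the all-gene median in liver over brain to 0.01.

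The largest set of members was highest in liver. In all, 10 members (31.2% of those tested) were higher in liver than in both other tissues, against 16.8% of all tested genes. Slc25a15, the ornithine carrier of the urea cycle, had a lowest, median and highest level of 5.36, 5.73 and 7.76 over the 8 liver arrays, against 1.84, 2.06 and 2.26 over the heart arrays and 1.63, 1.73 and 1.80 over the brain arrays. No liver array overlapped the other tissues, and liver was higher by 4.34 over heart and by 4.67 over brain (SE 0.29 each, adjusted p 2.01e-10 and 3.95e-11). Slc25a10, the dicarboxylate carrier that exchanges malate and succinate for phosphate, ran at 3.94, 4.36 and 5.23 in liver, against 0.79, 1.14 and 1.65 in heart and 0.59, 0.96 and 1.36 in brain. Here too liver stood clear of both, by 3.29 over heart and 3.47 over brain (SE 0.18 each), while heart and brain overlapped and did not differ by the test (0.18, adjusted p 0.385).

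The citrate carrier Slc25a1, which exports the citrate used for fatty acid synthesis, lay at 4.26, 4.56 and 5.08 in liver, against 0.67, 0.93 and 2.61 in heart and 1.74, 2.24 and 2.61 in brain. It was higher in liver by 3.44 over heart and by 2.37 over brain (SE 0.20 each) and lower in heart than in brain by 1.07 (change -1.07, adjusted p 9e-05). Slc25a45, one of the less studied carriers, ran at 3.50, 4.50 and 5.90 in liver, against 1.74, 1.88 and 2.17 in heart and 1.00, 1.13 and 1.53 in brain, with changes of 2.77 and 3.50 for liver over heart and over brain (SE 0.25 each). Slc25a25, an ATP-Mg/phosphate carrier that sets the matrix adenine nucleotide pool, had 3.48, 4.51 and 5.10 in liver, 0.91, 1.27 and 1.49 in heart and 2.72, 3.09 and 3.38 in brain. Liver was higher by 3.14 over heart and 1.33 over brain (SE 0.23 each), with every liver array above every brain array. The other 5 members highest in liver were the glutathione carrier Slc25a39, Slc25a48, the folate and FAD carrier Slc25a32, the kidney mitochondrial carrier protein Slc25a30 and the coenzyme A-linked Slc25a16. The smaller of their 2 differences ran from 1.17 for Slc25a39 to 0.53 for Slc25a16. Slc25a48 was above the array median on all 8 liver arrays and on 0 arrays of heart and brain, so it passed the filter through liver alone and had to be higher there. The call of Slc25a30 in liver over heart (0.61, adjusted p 0.044) was lost on leaving out the untreated, 1 hour, 6 hour or 10 day arrays, with adjusted p between 0.0825 and 0.153.

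Heart led in 7 members (21.9% of those tested), against 20.2% of all tested genes. Slc25a34, a carrier with no firmly established substrate, reached a lowest, median and highest level of 3.61, 3.96 and 5.77 in heart, against 0.52, 0.80 and 1.00 in liver and 0.49, 0.70 and 1.08 in brain. Liver was lower than heart by 3.48 (change -3.48, SE 0.18, adjusted p 5.73e-12) and heart was higher than brain by 3.55 (SE 0.18, adjusted p 2.92e-12), with no overlap. Its second probe, above the array median on 9 arrays, gave 1.85 for heart over brain. Slc25a3, the phosphate carrier that supplies ATP synthase, ran at 6.23, 6.79 and 6.98 in heart, against 2.65, 4.11 and 5.19 in liver and 3.79, 4.72 and 5.63 in brain. Heart was higher than brain by 2.06 (SE 0.20, adjusted p 2.57e-08) and liver lower than heart by 2.67 (change -2.67), both without overlap. Its liver over brain change of -0.61 (adjusted p 0.00955) was lost with the mean of both probes (-0.21, adjusted p 0.221) and without the time block (adjusted p 0.064), and the second probe gave 0.18.

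Slc25a11, the oxoglutarate/malate carrier of the malate-aspartate shuttle, had 5.82, 6.25 and 6.81 in heart, against 3.63, 3.92 and 4.55 in liver and 3.59, 4.30 and 4.60 in brain. Its 3 probes gave between 1.90 and 2.19 for heart over brain, while liver and brain overlapped (change -0.21, adjusted p 0.343). The S-adenosylmethionine carrier Slc25a26 lay at 3.07, 3.29 and 3.59 in heart, against 1.28, 1.81 and 2.43 in liver and 1.12, 1.77 and 1.92 in brain, and Slc25a35, another carrier without a settled substrate, at 0.30, 0.61 and 0.78 against -0.34, -0.21 and -0.11 in liver and -0.42, -0.18 and 0.23 in brain. For both, heart was above all arrays of the other tissues. The aspartate/glutamate carrier Slc25a12 and the outer membrane protein Slc25a46, which takes part in mitochondrial shape and fission, completed the set, with smaller differences of 0.72 and 0.24. Slc25a46 and Slc25a35 passed the filter through heart, Slc25a46 on 4 heart arrays alone and Slc25a35 on 8 heart arrays and 1 brain array, so their place in this set follows from the filter and supports nothing.

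Brain led in 3 members (9.38%), against 31.4% of all tested genes. Slc25a14, the brain mitochondrial carrier protein also called UCP5, was at 0.02, 0.15 and 0.41 in liver and 0.10, 0.22 and 0.39 in heart, against 2.70, 3.07 and 3.40 in brain. It was lower in liver than in brain by 2.88 and lower in heart by 2.85 (changes -2.88 and -2.85, SE 0.08, adjusted p 4.84e-16 and 6.26e-16), the smallest adjusted p of any member in both comparisons. Slc25a27, the uncoupling protein UCP4 known from neurons, had -0.56, -0.25 and 0.00 in liver and -0.21, 0.00 and 0.21 in heart, against 0.83, 1.26 and 1.83 in brain. Both other tissues stayed below all brain arrays, with changes of -1.56 for liver and -1.29 for heart over brain. The basic amino acid carrier Slc25a29 differed less, at 0.02, 0.17 and 0.44 in liver and 0.58, 0.72 and 0.76 in heart, against 0.71, 0.83 and 1.08 in brain. Its heart over brain change of -0.17 (adjusted p 0.046) turned to 0.05 (adjusted p 0.591) with quantile normalization over all arrays, so that no direction holds between those tissues.

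**Figure D2:**
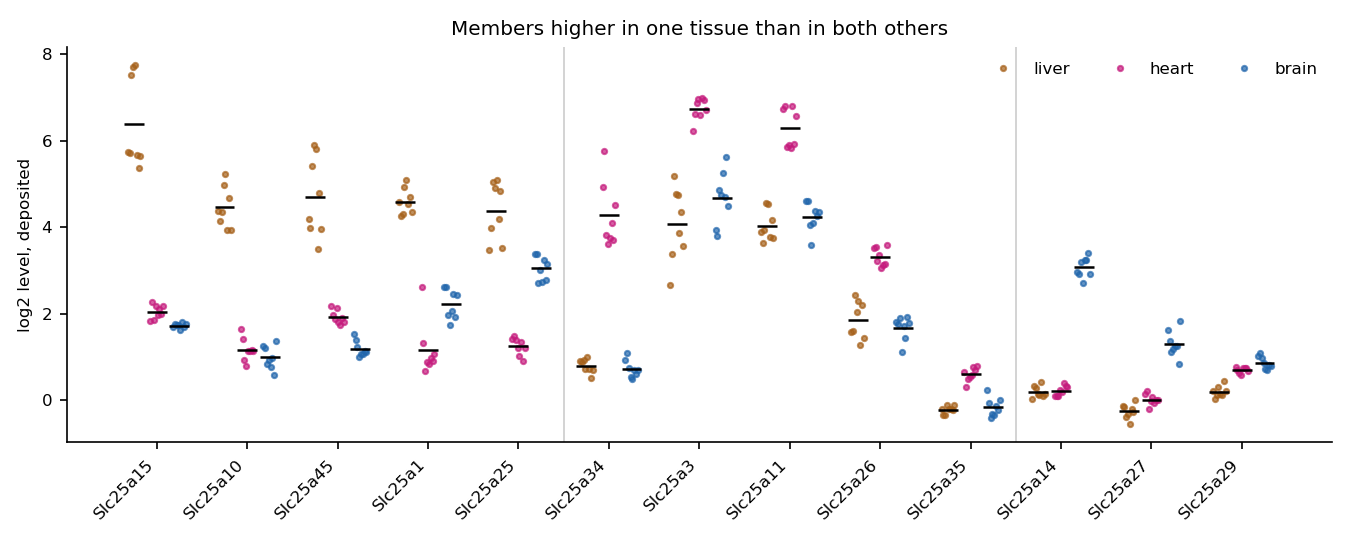
Deposited log2 level (vertical axis) of 13 members that were higher in liver (left block), heart (middle block) or brain (right block) than in both other tissues; each point is 1 array, 8 per tissue, and black lines are tissue means. In the liver, heart and brain blocks the leading tissue's points stand apart from the others for all genes but Slc25a29, where heart and brain overlap.

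Among the remaining members, sharing between tissues took several forms. Slc25a20, the carnitine/acylcarnitine carrier that admits fatty acids to the matrix, was at 5.26, 5.89 and 7.62 in liver and 6.03, 6.34 and 6.91 in heart, against 2.14, 2.85 and 3.20 in brain. It was higher by 3.47 in liver and by 3.57 in heart than in brain (SE 0.33 each), and its liver over heart change was -0.10 (adjusted p 0.803), although a second probe gave -1.15 there. The branched-chain amino acid carrier Slc25a44 was lower in heart than in both other tissues, at 0.98, 1.26 and 1.99 in heart, 3.43, 4.04 and 4.44 in liver and 3.41, 3.82 and 4.37 in brain. The change was -2.43 for heart over brain and 2.50 for liver over heart, and liver and brain overlapped. Slc25a36, a pyrimidine nucleotide carrier, was lowest in liver, at -0.29, -0.03 and 0.54, against 1.91, 2.16 and 2.50 in heart and 1.10, 1.95 and 2.71 in brain, while its homologue Slc25a33 had its smallest mean there (3.18 ± 0.80 for liver, 3.74 ± 0.25 for heart and 4.17 ± 0.28 for brain, SD, n = 8 each).

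A group of 7 members was lowest in brain (21.9%, against 18.8% of all tested genes), namely Slc25a13, Slc25a20, Slc25a24, Slc25a39, Slc25a42, Slc25a45 and Slc25a48. Slc25a48 was above the array median on 0 heart and 0 brain arrays, and its heart over brain change of 0.31 lay within the 0.09 to 0.31 (10th to 90th percentile) of undetected genes. Its place in this group is therefore not read as a difference, and nor is that of Slc25a24, above the median on 1 brain array, whose liver over brain change of 0.47 lay within the 0.24 to 0.57 of undetected genes. Slc25a13, above the median on 0 brain arrays, passed the filter through liver and heart alone, so its place here follows from the filter. A further 5 were lowest in liver (15.6%, against 25.4%), namely Slc25a3, Slc25a12, Slc25a27, Slc25a29 and Slc25a36. Of these, Slc25a3 left the group with the mean of its probes or without the time block. Slc25a27 left it with the mean of its probes (liver over heart change -0.04, adjusted p 0.603) and without the 24 hour arrays (-0.22, adjusted p 0.0525). Another 4 were lowest in heart (12.5%, against 9.6%), namely Slc25a1, Slc25a17, Slc25a25 and Slc25a44. The glutamate carrier Slc25a22, the iron carrier Slc25a28 (mitoferrin 2) and the glycine carrier Slc25a38 of haem synthesis differed in no tissue comparison by the test (9.38%, against 9.39%). Slc25a38 lay at 3.74, 4.59 and 5.91 in liver, 4.56, 4.78 and 4.90 in heart and 3.54, 4.34 and 4.61 in brain, and Slc25a28 at 3.47, 4.25 and 5.60 in liver, 3.91, 4.24 and 4.64 in heart and 3.80, 4.69 and 4.83 in brain. Slc25a22 stayed near the array median in all tissues, between -0.30 and 0.12.

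Isoforms that carry the same substrates could be set side by side across tissues, each by its own probe. The aspartate/glutamate carriers of the malate-aspartate shuttle were both called higher in heart than in brain and opposite ways in liver over brain. For Slc25a13 both calls follow from the filter. Slc25a12 (aralar) averaged 1.31 ± 0.44 in liver and 4.26 ± 0.17 in heart, against 3.54 ± 0.22 in brain (SD, n = 8 each), with no overlap between tissues, a change of -2.22 for liver and 0.72 for heart over brain (SE 0.16 each). Slc25a13 (citrin), known as the liver isoform, had 0.08, 0.24 and 0.66 in liver and -0.41, 0.34 and 0.48 in heart, against -0.84, -0.72 and -0.64 in brain. It was above the array median on 8 liver, 5 heart and 0 brain arrays. Its change was 1.03 for liver and 0.85 for heart over brain (SE 0.11 each), set against brain values below the array median, so the sizes are not exact. Slc25a13 passed the filter through liver and heart alone, so its lower place in brain follows from the filter and supports nothing. The 90th percentile of such differences over undetected genes was 0.57 for liver and 0.31 for heart over brain. For this isoform liver and heart overlapped (change 0.18, adjusted p 0.179). For the ADP/ATP translocases, Slc25a5 had 6.36, 6.88 and 9.13 in liver and 6.74, 6.89 and 7.42 in heart, against 6.09, 6.53 and 6.76 in brain. It was higher in liver than in brain by 1.01 (SE 0.35, adjusted p 0.0138), a call lost without the 12 hour arrays (0.81, adjusted p 0.0537), and the 0.50 for heart over brain did not pass (adjusted p 0.21). Slc25a31, the translocase known from germ cells, lay below the array median on all 24 arrays. Slc25a2, Slc25a4, Slc25a18 and Slc25a37 were not analysed here.

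Carrier homologues under other symbols and the enzymes that work beside the carriers were read from lists, whose counts stand against the shares of all tested genes called up and down: 34.3% and 37% in heart over brain, 30.6% and 45.6% in liver over brain, and 24.7% and 40.6% in liver over heart. Heart over brain had 3 of the 4 tested homologues up and 1 down, with Ucp3, an uncoupling protein of muscle, up by 1.84 and Mtch1, an outer membrane homologue, down (change -1.11). Ucp1 and Ucp3 averaged -0.49 and -0.65 in brain and -0.33 and -0.37 in liver, below the array median on all arrays of both tissues. They passed the filter through heart alone, so their higher place there follows from the filter and supports nothing, and the size for Ucp3 is not exact. Among 15 tested shuttle and urea cycle enzymes, heart over brain had 9 up and 2 down, led by Crat (carnitine acetyltransferase, 3.09), Gpd2 (mitochondrial glycerol phosphate dehydrogenase, -2.22) and Mdh2 (mitochondrial malate dehydrogenase, 2.20). Liver over brain had 8 up and 5 down, led by the urea cycle enzymes Arg1 (8.61), Cps1 (8.60) and Ass1 (5.85), which stand beside the ornithine carrier in that cycle. Arg1 and Cps1 averaged -0.61 each in brain, below the array median, so the sizes of these differences are not exact. Liver over heart had 8 up and 5 down. Among 16 tested genes of other mitochondrial transport, heart over brain had 10 up and 5 down, with the carnitine palmitoyltransferases Cpt1b (6.39) and Cpt2 (4.38) and the sideroflexin Sfxn5 (-3.81) changing most.

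The same list had 5 up and 9 down in liver over brain, and 2 up and 9 down in liver over heart, where the porins Vdac1, Vdac2 and Vdac3 of the outer membrane were lower by 1.48, 1.80 and 2.17 (changes -1.48, -1.80 and -2.17). Among 10 tested genes of protein import, heart over brain had 6 up and 2 down (Timm10, a carrier chaperone of the intermembrane space, by 1.30). Liver had 2 up and 4 down over brain, and 0 up and 4 down over heart. Among 9 tested regulators of mitochondrial genes, heart over brain had 8 up and 0 down, led by Esrra (1.57), Tfb2m (1.47) and Ppargc1a (1.41), the coactivator known for driving mitochondrial biogenesis. Liver had 4 up and 2 down over brain, and 1 up and 6 down over heart. The median change of the regulators in heart over brain was 1.15, against 0.32 for the carriers and 0.03 for all tested genes.

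The next question was whether carriers changed after the extract, taken over the 3 tissues with tissue as a block. Changes were few and lay at 6, 12 and 24 hours and 5 days. Every time was set against the same 3 untreated arrays, 1 per tissue, so calls at several times are not independent. An F test over all 8 times called 3 of 32 members (9.38%), against 4.31% of all tested genes: Slc25a17 (adjusted p 0.0219), Slc25a42 (0.0294) and Slc25a16 (0.0329). No member was called at 1 hour, 3 days or 10 days against untreated, where 0%, 0.32% and 0% of all tested genes were called by limma. At those times 0, 4 and 0 members had an unadjusted p under 0.05.

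Slc25a3, the phosphate carrier, showed the largest of these changes. Its liver levels were 2.65 untreated and then 3.37, 5.19, 4.77, 4.75, 3.86, 4.36 and 3.57 at 1, 6, 12 and 24 hours and 3, 5 and 10 days. In heart the same series read 6.23 untreated and then 6.61, 6.87, 6.97, 6.60, 6.98, 6.94 and 6.71, and in brain 3.92 untreated and then 3.79, 4.87, 4.75, 5.26, 4.69, 5.63 and 4.48. All treated arrays of liver and heart were above the untreated one, and all but the 1 hour array of brain. Over the tissues the rise was 1.38, 1.23, 1.27 and 1.37 at 6, 12 and 24 hours and 5 days (SE 0.32 each, adjusted p 0.0284, 0.0352, 0.0448 and 0.0385), and the change of 0.91 at 3 days did not pass (adjusted p 0.237). Its second probe gave 1.01, 0.72, 0.72 and 0.56 at the 4 called times, and under quantile normalization within each tissue the changes were 1.44, 1.41, 1.35 and 1.62, all called. Without liver the 6, 12 and 24 hour changes were 0.80, 0.78 and 0.85 (adjusted p 0.0952, 0.077 and 0.0766), and without brain or without heart none of the 4 changes passed (adjusted p 0.195 to 0.506). With a variance trend the 12 hour, 24 hour and 5 day calls were also lost (adjusted p 0.0509, 0.0641 and 0.051).

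Slc25a17, the peroxisomal carrier of coenzyme A, FAD and NAD, rose at 6, 12 and 24 hours by 0.86, 0.69 and 0.86 (SE 0.18 each, adjusted p 0.0195, 0.0361 and 0.0184). Its levels at 6, 12 and 24 hours were 3.12, 2.92 and 3.34 in liver, against 2.08 untreated, 2.29, 2.24 and 2.00 in heart, against 1.54 untreated, and 2.92, 2.68 and 3.02 in brain, against 2.14 untreated. All 9 arrays of those times were above the untreated array of their tissue, which the 3 times of a tissue share. Slc25a16 rose at 6 and 12 hours by 0.80 and 0.67 (SE 0.19 each, adjusted p 0.029 and 0.0478), and the single-tissue changes at 6 hours were 1.09 in liver, 0.51 in heart and 0.82 in brain. The calls of Slc25a17 and Slc25a16 were likewise lost without brain or without heart. Members called higher at 6, 12 and 24 hours numbered 3, 3 and 2 of 32, where 1.08%, 1.32% and 0.777% of all tested genes were called higher, and at 5 days 1 member was, where 0.723% were. In both directions together, 3.33%, 5.37%, 2.7% and 1.98% of all tested genes were called at those 4 times.

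Lower calls came at 12 hours and numbered 2 of 32, where 4.05% of all tested genes were called lower. At 6 and 24 hours and 3 and 5 days limma called 0 members lower, where 2.25%, 1.92%, 0.0823% and 1.25% of all tested genes were. The glutathione carrier Slc25a39 fell by 1.03 (SE 0.28, adjusted p 0.0418) and the coenzyme A carrier Slc25a42 by 1.01 (SE 0.26, adjusted p 0.0326). At 12 hours Slc25a39 was 5.03 in liver against 5.21 untreated, 2.92 in heart against 4.51 untreated and 1.87 in brain against 3.18 untreated. Slc25a42 was 2.42 in liver against 3.14 untreated, 1.95 in heart against 3.38 untreated and 0.82 in brain against 1.71 untreated. Both were lower in each tissue at that time, by least in liver for Slc25a39. The changes at 6 hours, -1.02 and -0.83, and at 5 days, -0.88 and -0.99, did not pass (adjusted p 0.0545 and 0.0883 at 6 hours, 0.11 and 0.0555 at 5 days). Without the 12 hour brain array, an alternative chosen after seeing the data, none of the 5 calls at 12 hours remained, with adjusted p of 0.0646 to 0.2. The Slc25a39 call was also lost with no filter on low genes (adjusted p 0.0543), without brain (0.533) and without heart (0.441), and the Slc25a42 call without brain (0.366) and without heart (0.33).

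**Figure D3:**
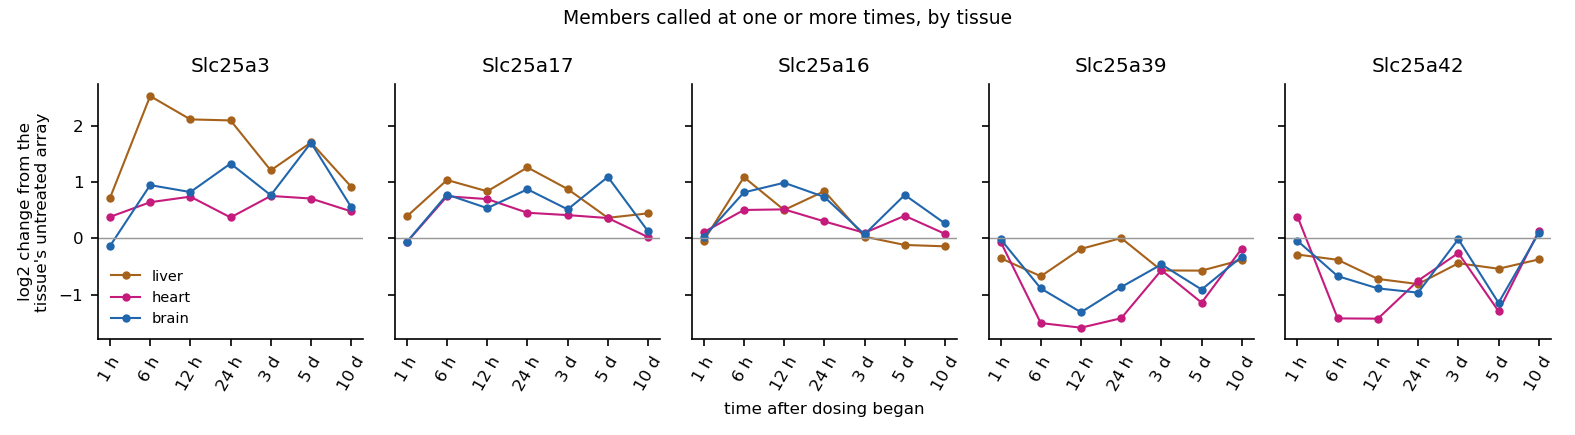
Log2 change of 5 members from the untreated array of the same tissue (vertical axis) at 7 times after dosing began (horizontal axis); each point is 1 array and colours are tissues. Slc25a3, Slc25a17 and Slc25a16 lie above 0 at 6, 12 and 24 hours in all 3 tissues, and Slc25a42 lies below 0 at those times, while Slc25a39 is near 0 in liver at 24 hours.

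The 4 times with calls also shared a property of the arrays. The 5th percentile of the values was -0.474 to -0.459 in liver, -0.721 to -0.714 in heart and -0.940 to -0.932 in brain at 6, 12 and 24 hours and 5 days, against -0.445 to -0.435, -0.707 to -0.698 and -0.913 to -0.912 on the untreated, 1 hour and 10 day arrays. At 3 days, when no member was called, it was -0.447 in liver, -0.714 in heart and -0.930 in brain, the heart value within the range of the called times. The extract's effect at those times and this property of the arrays cannot be told apart. Among the enzymes beside the carriers, Crat was called lower at those 4 times (changes -1.06, -0.92, -1.02 and -0.88). Got1 (-0.70), the cytosolic aspartate aminotransferase, and Gpd1 (-0.60), the cytosolic glycerol phosphate dehydrogenase, were lower at 12 hours, and Gpd1 at 3 days (-1.04). In the lists of import and other transport, Tomm70a, an import receptor for carriers, was higher at 12 hours (1.11), Timm10 lower (-0.92), and Vdac2 higher at 5 days (0.74).

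Within single tissues, the 7 treated arrays were set against the lone untreated one, taken to have the spread of the treated ones. This gave 1 call in heart, in the citrate carrier. In brain and in liver 0 members were called by limma, where 0% of all tested genes were called, and 2 members in each had an unadjusted p under 0.05. In heart 1 member was lower, where 0.11% of all tested genes were. Slc25a1 was 1.33, 0.67, 0.88, 0.83, 0.96, 0.89 and 1.06 at 1, 6, 12 and 24 hours and 3, 5 and 10 days in treated hearts, against 2.61 in the untreated heart. All treated arrays were below it, with a mean of 0.95 ± 0.21 (SD, n = 7), and the change was -1.67 (SE 0.30, adjusted p 0.0178). A second Slc25a1 probe gave -0.53. The call was lost with quantile normalization within each tissue (-1.50, adjusted p 0.0689), without the 3 day array (adjusted p 0.0521), without the 5 day array (0.0671) and with only the 1 hour and 10 day arrays as treated (-1.42, adjusted p 0.0513).

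White fat markers were also highest on the untreated heart array. So were markers of cardiomyocytes (11.60), skeletal muscle (8.80), endothelial cells (6.28), red cells (9.48) and astrocytes (7.74). Hepatocyte, macrophage and brown fat markers were highest at 1 hour, and neuron and oligodendrocyte markers at 3 days. Among treated hearts Slc25a1 was highest at 1 hour (1.33), where the white fat sum was lowest (2.54). The summed level of the 6 white fat genes was 2.54 to 3.19 in treated hearts, against 5.22 in the untreated heart. In treated hearts 1 to 4 of the 6 were above the array median, against 6 in the untreated heart, and Adipoq (adiponectin) was 0.22 to 1.85 in treated hearts, against 4.28 in the untreated heart. Their part in the Slc25a1 result was not tested. Acly, the enzyme that splits the exported citrate, was 3.82 to 4.22 in treated hearts, against 4.59 in the untreated heart. The count of members with all 7 treated heart arrays below the untreated one was 8 of 32, where 25.5% of all tested genes were, and 6 had all 7 above it, where 10.7% were. No member was called in the test of whether the change differed between tissues (0.0274% of all tested genes), where 2 had an unadjusted p under 0.05.

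**Figure D4:**
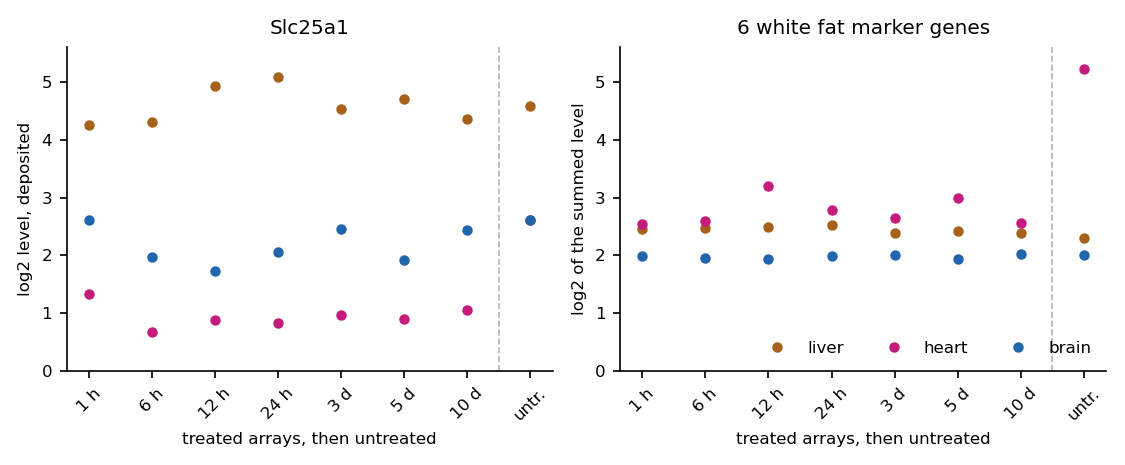
Log2 level of Slc25a1 (left) and log2 of the summed level of 6 white fat marker genes (right) on the 7 treated arrays and the untreated array of each tissue; each point is 1 array. In heart both are highest on the untreated array, at 2.61 and 5.22, and the untreated brain point for Slc25a1 lies on the heart point.

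The last comparison set the later days (3, 5 and 10 days) against the first day (1, 6, 12 and 24 hours) in each tissue. In brain and in heart 0 members were called, where 0% of all tested genes were called by limma and 0 and 1 members had an unadjusted p under 0.05. In liver 5 of 32 members were lower and 0 higher, where 13.2% of all tested genes were called, 10.8% downwards and 2.41% upwards. They were Slc25a5 (ADP/ATP translocase, -1.62, SE 0.42, adjusted p 0.0262), Slc25a15 (ornithine carrier, -1.62, SE 0.32, adjusted p 0.0154), Slc25a20 (acylcarnitine carrier, -1.60, SE 0.34, adjusted p 0.0198), Slc25a45 (-1.20, SE 0.33, adjusted p 0.0316) and Slc25a48 (-0.57, SE 0.18, adjusted p 0.0424). The members' median change in liver was -0.41, against -0.10 over all tested genes. No member was called in the test of whether this change differed between tissues, where 0% of all tested genes were called by limma and 6 members had an unadjusted p under 0.05.

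The liver levels showed where these differences lay. Slc25a15 was 5.66, 5.36 and 5.65 at 3, 5 and 10 days, against 5.72, 7.53, 7.71 and 7.76 at 1, 6, 12 and 24 hours and 5.74 untreated. Slc25a20 was 5.27, 5.70 and 5.26 on the later days, against 5.77, 7.62, 7.43 and 7.24 on the first day and 6.00 untreated. Slc25a5 was 6.36, 7.12 and 6.51 on the later days, against 6.47, 9.05, 8.50 and 9.13 on the first day and 6.64 untreated. In each case the 6, 12 and 24 hour arrays were high and the 1 hour array lay near the untreated and later ones. Slc25a45 was 3.50, 4.79 and 3.96 on the later days, against 3.99, 5.41, 5.90 and 5.82 on the first day, and Slc25a48 was 0.14, 0.35 and 0.30 on the later days, against 0.24, 0.97, 0.72 and 1.39 on the first day. Blocking on the set of arrays that shared a 5th percentile range (untreated, 1 hour and 10 days; 6, 12 and 24 hours and 5 days; 3 days) left Slc25a15 and Slc25a20 called and lost Slc25a5, Slc25a45 and Slc25a48 (adjusted p 0.0527, 0.0665 and 0.0924). Without the 1 hour arrays, which leaves the 6, 12 and 24 hour arrays as the first day, 16 members were called lower. That count stands without the share of all tested genes, so it is not read as a result about the members. On leaving out any other treated time 0 members were called lower.

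Those 3 liver arrays were stretched at the bright end. Their 95th percentile was 5.15 to 5.36, against 4.13 to 4.52 on the other 5 liver arrays, and hepatocyte markers summed to 12.75 to 13.44 on them, against 10.28 to 11.61. With quantile normalization within each tissue 0 members were called lower, and the changes were -0.33 for Slc25a5, -0.52 for Slc25a15, -0.55 for Slc25a20, -0.44 for Slc25a45 and -0.53 for Slc25a48 (adjusted p 0.16, 0.083, 0.0557, 0.199 and 0.0782). After that step Slc25a15 was 6.49, 5.51 and 6.31 on the later days, against 6.38, 6.57, 6.90 and 6.63 on the first day. Counted against the untreated liver array as deposited, 12, 9 and 11 members were at least 2-fold higher at 6, 12 and 24 hours. At least 2-fold lower were 0, 0 and 1. Of all 10934 tested genes, 1339, 949 and 1293 were at least 2-fold higher and 120, 107 and 134 at least 2-fold lower. In both directions together, 13.3%, 9.66% and 13.1% of all tested genes changed 2-fold. After quantile normalization within liver 1, 1 and 2 members were higher, with Slc25a3 among them each time. Lower were 2, 1 and 2, with Slc25a39 among them each time. In both directions together, 4.86%, 3.72% and 3.95% of all tested genes then changed 2-fold.

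Slc25a30, the kidney mitochondrial carrier protein, followed another course in liver. It was 1.71 untreated and then 2.38, 2.79, 0.88, 0.67, 0.86, 0.42 and 1.35 at 1, 6, 12 and 24 hours and 3, 5 and 10 days. It was high at 1 and 6 hours and below the untreated array from 12 hours on, and quantile normalization within liver left the series at 1.68 untreated and then 2.53, 2.52, 0.87, 0.69, 0.85, 0.47 and 1.35. No test called it over time. In liver later against first day, where 10.8% of all tested genes were lower, 2 of 16 tested genes of other mitochondrial transport were lower (Cpt2, -1.23, and Vdac3, -0.83), 1 of 10 import genes (Timm9, -1.63), 2 of 4 carrier homologues (Mtch2, -1.42, and Mtch1, -1.15) and 0 of 9 regulators. Of 15 shuttle and urea cycle enzymes 4 were lower, led by Got2 (-1.98), Cps1 (-1.80) and Acly (-1.55), and 1 was higher (Got1, 0.78). With quantile normalization within each tissue, Timm9 (lower) and Got1 (higher) were the genes of these lists still called.

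**Figure D5:**
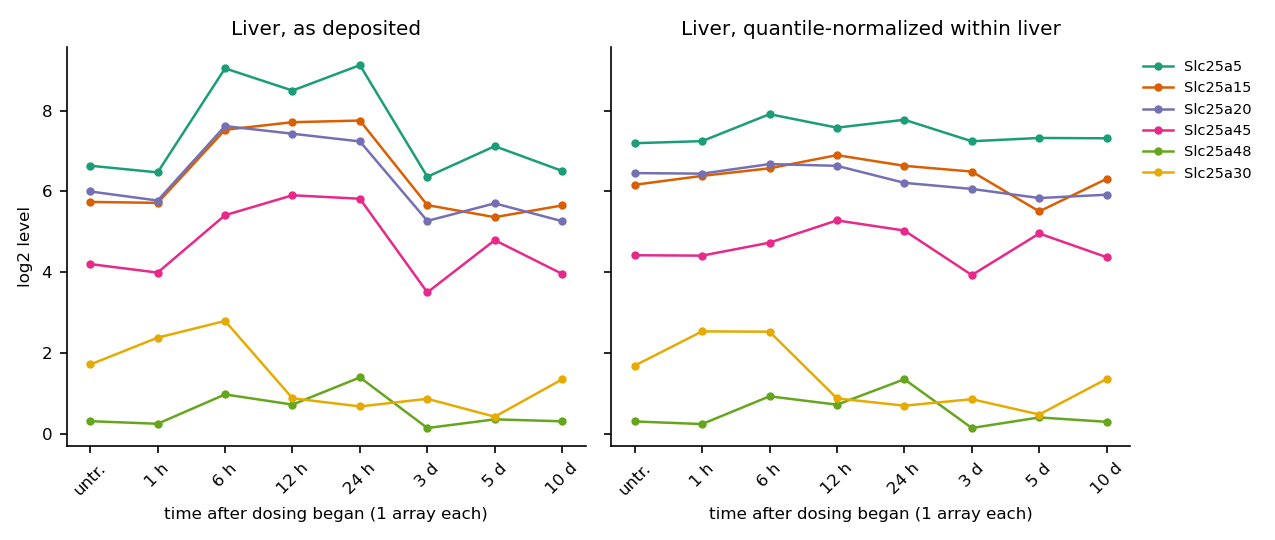
Liver log2 level of 6 members (vertical axis) by time (horizontal axis, 1 array each), as deposited on the left and after quantile normalization within liver on the right. The rise of Slc25a5, Slc25a15, Slc25a20 and Slc25a45 at 6, 12 and 24 hours is smaller on the right, and the course of Slc25a30 is alike in both.

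Across the 8 times, the carriers' median range was above that of all tested genes in liver. The median range of a member over the times was 1.07 in liver, 0.59 in heart and 0.73 in brain, against 0.71, 0.57 and 0.63 for all tested genes, a description with no test. After quantile normalization within each tissue the liver medians were 0.97 for members and 0.64 for all tested genes. Members in the top 10% of all tested genes by this range numbered 9 in liver, 4 in heart (Slc25a1, Slc25a34, Slc25a39 and Slc25a42) and 3 in brain (Slc25a3, Slc25a36 and Slc25a39). After quantile normalization within each tissue they numbered 8 in liver, 6 in heart and 5 in brain. Slc25a34 in heart was 4.94 untreated and then 5.77, 3.82, 3.61, 3.75, 4.10, 3.71 and 4.51 at 1, 6, 12 and 24 hours and 3, 5 and 10 days. It was highest on the untreated, 1 hour and 10 day arrays, the arrays with the higher 5th percentile. Slc25a36 in brain was 1.10 untreated and then 1.26, 1.90, 2.71, 2.03, 1.54, 2.10 and 1.99, above the untreated array at all 7 times, without a call.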

How the data were processed

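The series measured messenger RNA in liver, heart and brain on 24 Illumina bead arrays. Total RNA was amplified to biotinylated cRNA, per the labels' protocols. The deposited table of 25697 probes holds log2 values per the values themselves (the base is taken as 2, since no source used here states it), each array centred near 0 by the authors. The authors' background correction and normalization are not stated in any source used here. A second deposited table was not used, since none of its 24 value columns carries a sample's name. No detection values were therefore at hand, and array number and signal over background limit precision.

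Probes were named from GEO's platform annotation: 23141 had a gene symbol and 2556 had none. Each gene was represented by its probe of highest mean. All 37 members matched RefSeq by Entrez ID under the same symbol. Genes above the array median on at least 4 arrays were fitted with limma 3.58.1 (lmFit, eBayes, two-sided) in R 4.3.3, and p-values were adjusted by Benjamini-Hochberg over the 10934 genes tested, with calls under 0.05. Time was a block in the tissue contrasts, and each time against untreated used tissue as a block. Contrasts within a tissue used group means with 1 spread shared by all arrays. With 1 array per tissue and time, p-values measure the spread between these arrays, which may be technical. The fit was tested on simulated data. Genes above the array median on no array gave the difference between tissues that undetected values show.

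The members and gene lists were chosen with earlier results of these data known. Genes are named by rule: up to 5 members led by each tissue, isoform groups, the 5 members of highest mean, up to 4 called members each way per comparison, and up to 3 genes of each other list. Vdac1 to Vdac3, Adipoq, Acly, Slc25a30, Slc25a33, Slc25a36 in brain and other single genes outside it were chosen after their values were seen. Alternatives were quantile normalization within each tissue or over all arrays, no filter or a stricter one, averaging the probes of a gene, robust eBayes with a variance trend, no time block, array set as a block, and leaving out single times or tissues.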

Additional observations from a re-analysis of the deposited data

Results flagged for a closer look

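Single arrays stood apart from the other 7 of their tissue in 3 of 96 sets of 8 arrays examined (32 tested members in 3 tissues), by Dixon's gap over range above its 95% critical value. Chance alone marks about 1 set in 20. The 8 arrays of a tissue are different times, so an array that stands apart is also a time. Slc25a1, the citrate carrier, was 2.61 on the untreated heart array, where the nearest heart array had 1.33 (gap over range 0.661). The white fat markers given in the account of the heart comparison were highest on the same array. So were cardiomyocyte, skeletal muscle, endothelial, red cell and astrocyte markers, and the part of these lists was not tested. Slc25a33, a pyrimidine nucleotide carrier, was 3.54 on the 12 hour brain array, where the nearest brain array had 4.14 (gap over range 0.628). Slc25a46, the outer membrane protein, which lay below the array median on all liver arrays, was -0.64 on the 6 hour liver array, where the nearest liver array had -0.36 (gap over range 0.675).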

How the results depend on the processing

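No count of members called in the 3 tissue comparisons moved by over 1.5 times under any alternative run. The heart over brain change of Slc25a29 turned to 0.0528 with quantile normalization over all 24 arrays. Counts over time were less stable. Quantile normalization within each tissue called 5 members in the F test over times, where 3 were called as deposited, and 4, 2 and 3 members lower at 6 hours, 24 hours and 5 days, where 0 were, 1 higher at 3 days, where 0 were, 0 lower in treated hearts, where 1 was, and 0 lower in liver later against first day, where 5 were. Over all 24 arrays the same step called 4, 1 and 2 lower at 6 hours, 24 hours and 5 days, 1 higher at 3 days and 1 lower in liver later against first day. With no filter on low genes 1 member was lower at 12 hours and 1 higher at 24 hours. The mean of a gene's probes left 0 higher at 5 days. A variance trend with robust eBayes left 1 higher at 12 hours, 1 at 24 hours and 0 at 5 days, and called 1 lower at 5 days. Leaving out each tissue in turn gave 0 to 7 members in the F test, 0 to 2 higher and 0 to 5 lower at 6 hours, 0 to 2 higher and 0 to 8 lower at 12 hours, 0 to 3 higher and 0 to 7 lower at 24 hours, and 0 to 3 higher and 0 to 5 lower at 5 days. The lowest counts of higher members came without brain or heart and the highest counts of lower members without liver. Leaving out each treated time in turn gave 0 to 1 lower in treated hearts, 0 to 16 lower and 0 to 1 higher in liver later against first day, and 0 to 11 in the test of its difference between tissues, the highest counts all without 1 hour. With only 1 hour and 10 days as treated 0 were lower in heart, and with array set as a block 2 (Slc25a15 and Slc25a20) were lower in liver later against first day. Without the 12 hour brain array 1 member was lower at 6 hours, and 0 were higher and 0 lower at 12 hours. The cause of these movements was not tested. The counts stand without the shares of all tested genes under the same alternative, so they are not read as results about the members. Arrays were matched by time in the tissue comparisons and by tissue in the time comparisons, and without the time block the counts of the tissue comparisons stayed within 1.5 times. No array has a replicate, so there were no replicate numbers to pair. Members near the array median, such as Slc25a13, Slc25a22, Slc25a24, Slc25a46 and Slc25a48, have little signal over background to change.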

Other observations

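The glycine carrier Slc25a38 had 3 probes above the array median on all arrays, and they went different ways in liver. In later against first day its probe of highest mean gave -1.01, the second -0.41 and the third 0.57. The carnitine/acylcarnitine carrier Slc25a20 had 1 further probe below the median on all 24 arrays, which gave 0.24 for heart over brain where the probe of highest mean gave 3.57. For Slc25a27 a probe below the median on all arrays gave 0.17 for heart over brain, against -1.29 from the probe of highest mean.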
